A study of Mus musculus with 24 samples.

Results

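Wide domains of histone H3 lysine 4 dimethylation (H3K4me2) shared by both control lines were examined in chromatin immunoprecipitation sequencing (ChIP-seq) of mouse small cell lung cancer cell lines. The domains were selected on measured values, namely the widths of the H3K4me2 peaks of lines 159-1 and 1014: overlapping peaks of each line were merged, the 2 sets were intersected on chromosomes 1 to 19, and stretches of 8 kb or longer were kept. This gave 180 domains out of 23848 control-shared regions of 1 kb or more. Full H3K4me2 cover in the control lines therefore follows from the choice, while H3K4me2 in the mutant lines and every other mark was not used to choose them.

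Lines 236L and 236R were derived from sgKdm6a RPP tumours and are labelled Kdm6a-Mutant, and lines 159-1 and 1014 were derived from sgControl RPP tumours and are labelled Kdm6a-WT. All 4 are early-passage cultures from a mouse model lacking Rb1, Trp53 and Rbl2 (RPP), so every group, the controls included, lacks these 3 tumour suppressors. Peak lists were available for H3K4me2, H3K4me1 and H3K27me3 in all 4 lines and for the KDM6A protein in the 2 control lines, 14 lists in all, each from 1 library. Cells were collected 24 h after plating without treatment. The KDM6A libraries were crosslinked with 2 mM disuccinimidyl glutarate besides formaldehyde and the H3K4me2 and H3K27me3 libraries with formaldehyde alone, while the sources used do not give the fixation for H3K4me1. Each genotype is represented by 2 lines, and the sequence of the edited Kdm6a allele was not analysed here. The names 236L and 236R share a number, and whether the 2 lines came from 1 animal was not examined. Each p-value ranks the group difference among the ways of splitting these 4 lines into 2 and 2, and does not reach beyond them. An exact two-sided permutation test of 2 lines against 2 lines cannot give a p below 0.333.

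H3K4me2 marks active promoters and the stretches beside them, and also enhancers, where it occurs together with H3K4 monomethylation (H3K4me1). KDM6A (UTX) is an H3K27 demethylase that works within the KMT2C and KMT2D complexes, which place H3K4me1 at enhancers. H3K27me3 is the mark of Polycomb repression. In many tissues, unusually wide stretches of H3K4 methylation lie over genes that set the identity of the cell.

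The H3K4me2 libraries of the control lines carry a caution. In the deposited names of these 2 lists the lines are exchanged relative to the sample labels. Values are given by sample label, and the choice of domains is the same either way because it uses both lists. Results that use only 1 of these 2 lists depend on which names hold. The autosomal length under H3K4me2 peaks was 74.2 Mb in 236L and 71.9 Mb in 236R, against 83.6 Mb in 159-1 and 85.9 Mb in 1014. The H3K27me3 lists were far less even, with 13.6 Mb in 236L and 29.4 Mb in 236R, against 45.3 Mb in 159-1 and 110 Mb in 1014. Read depth is unknown, since the lists carry no counts, and a shorter list may reflect depth or enrichment of the library.

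The domains had a median width of 9.50 kb and ranged from 8.004 to 87.0 kb. Together they spanned 1971 kb, or 2.85% of the 69.1 Mb of H3K4me2 shared by the control lines, and 27 of them reached 12 kb. Just inside the limit lay domains of 8.004 kb (Rangrf and Slc25a35), 8.005 kb (Socs5) and 8.017 kb (Socs3). Just outside lay regions of 7.997 kb without a gene start and 7.990 kb (Msl2). Within each list, the authors' fold enrichment was higher for the strongest peak in a domain than for all autosomal peaks, with medians of 11.2 and 4.80 in 236L, 11.6 and 6.25 in 236R, 9.88 and 4.74 in 159-1, and 10.3 and 5.25 in 1014. Where a domain met several peaks only the strongest was used, which raises the value by itself. Narrower regions were not measured in this way.

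The widest domain stood apart from all others. It measured 87.0 kb (chr8:123537426-123624472, mm10) and held 48 annotated ribosomal RNA genes of the tandem 5S array and no protein-coding gene start. H3K27me3 peaks covered 99.1% of it in 236L and 85.1% in 236R, against 99.1% in 159-1 and 100% in 1014. H3K4me1 peaks covered at least 99.8% of it in every line. Reads of repeated copies cannot be assigned to one copy, so totals over the domains are also given without it.

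A protein-coding gene start lay in 154 of the 180 domains (85.6%, exact binomial 95% interval 79.6 to 90.3%). Among all control-shared regions of 1 kb or more the share was 47.7%, and in those of 4 to 8 kb it was 84.8%, so that the wide domains were close to the next narrower class. Another 15 domains lay within gene bodies and 11 between genes. The domains held the starts of 191 genes, which is 0.924% of the 20665 autosomal protein-coding genes. In the 72 domains with 1 start of known strand, the H3K4me2 stretch ran a median of 7.17 kb downstream and 2.30 kb upstream of the start, and in 63 of the 72 the longer side was downstream. Starts were read from RefSeq promoter entries, and for genes without an entry either end of the gene was counted.

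Transcription factors of the lung and neuroendocrine lineages held the widest domains at gene starts. Nkx2-1, a homeobox factor that specifies lung epithelium, lay in a domain of 22.1 kb (chr12:56517433-56539499), and Foxa2, a forkhead pioneer factor, in one of 22.0 kb (chr2:148028060-148050064). Foxa1, the second lung forkhead factor, had 16.0 kb (chr12:57534156-57550128), and Nfib, a nuclear factor that is amplified in mouse small cell lung cancer, had 16.3 kb (chr4:82499034-82515292). Zfhx3, a homeobox and zinc finger factor, had 16.3 kb (chr8:108702479-108718817). The 12 widest also included the body of the aminopeptidase gene Aopep (57.5 kb), a stretch between genes whose nearest start is that of Ppara (37.9 kb), Inha and Obsl1 (14.9 kb), Gse1 (14.9 kb) and the body of Meis2 (14.8 kb).

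Of 35 neuroendocrine genes listed, 7 had their start in a domain (Insm1, Dll1, Nkx2-1, Foxa1, Foxa2, Prox1 and Nfib). Of 49 developmental transcription factors 10 did, among them Sox1, Sox2, Six4, Irx5, Meis2, Zfhx3, Id1, Id2 and Id3, and of 22 coactivators and chromatin remodellers 7 did, among them Brd2, Arid1a, Tle1, Tle3, Gse1 and Chd3. Of 16 genes of the COMPASS and KDM6 group there were 3, namely Kdm6b, the paralogous H3K27 demethylase, Setd1b, an H3K4 methyltransferase, and Pagr1a, a subunit of the KMT2C and KMT2D complexes. The lists with 1 to 3 genes were Hox (Hoxb3, Hoxb5 and Hoxb6 of 39), lung epithelium (Nkx2-1 and Cdh1 of 19), nonneuroendocrine (Hes1 of 25), Polycomb (Phc2 of 20), RNA processing (Hnrnpa1 of 23) and housekeeping (Rpl13a of 15). None of the 20 NEUROD1-type neuronal genes, 13 tuft cell genes, 25 oncogene and cell cycle genes, 20 macrophage genes, 15 fibroblast and endothelial genes or 26 cytosolic ribosome genes had a start in a domain. These counts describe the lists and were not tested.

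Long noncoding genes lay in 11 domains that held no coding start. Malat1, an abundant nuclear RNA, lay in a domain of 8.95 kb (chr19:5795798-5804746) that lay 34.5 kb from one of 12.6 kb (chr19:5839268-5851905) over Neat1, the scaffold of paraspeckles. MicroRNA hairpins lay in 12 domains (6.67%, against 0.566% of all control-shared regions of 1 kb or more). Longer regions offer more room for a hairpin, and no share was taken for regions of like width. The hairpins included Mir375, a microRNA of neuroendocrine cells, in a domain of 9.86 kb with the start of Cfap65. Mir141 and Mir200c, which repress the mesenchymal factors Zeb1 and Zeb2, shared a domain of 14.0 kb with the starts of Emg1 and Phb2 (chr6:124708343-124722340). Their mature 3p strands, from RefSeq (GRCm38.p6), are shown with the seed (bases 2 to 8) in capitals because the seeds differ although the hairpins are neighbours:
miR-141-3p: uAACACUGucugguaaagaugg
miR-200c-3p: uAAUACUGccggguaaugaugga

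Promoters inside the domains were rich in CG dinucleotides, the feature through which CXXC-domain proteins bring H3K4 methyltransferases to promoters. RefSeq windows from 250 bases before to 50 after the start held a median of 22 CG in the 203 domain promoters, the same median of 22 in the 11886 promoters of any control-shared region, and 14 in all 20085 promoters. The E-box CAGCTG lay in 20.2% of domain promoters, 14.7% of promoters in any control-shared region and 15.6% of all promoters. The forkhead letters TGTTTAC, on either strand, lay in 3.45%, 2.26% and 3.04% of the same 3 sets. Windows of 5 genes are shown because their domains differed in how much H3K4me2 was kept, 3 of them at the low end (Sox2, Inha and Jag2) and 2 at the high end (Foxa1 and Nkx2-1). Capitals mark each CG, and all are GRCm38.p6 and read 5′ to 3′ on the strand of the gene:
Sox2 (chr3:34649745-34650044, plus strand): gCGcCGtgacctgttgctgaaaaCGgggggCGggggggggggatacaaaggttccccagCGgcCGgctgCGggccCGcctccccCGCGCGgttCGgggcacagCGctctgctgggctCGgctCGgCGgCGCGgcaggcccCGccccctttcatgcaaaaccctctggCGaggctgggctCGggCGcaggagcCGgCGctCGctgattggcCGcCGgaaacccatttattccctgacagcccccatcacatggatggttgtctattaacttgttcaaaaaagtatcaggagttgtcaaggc
Inha (chr1:75507359-75507658, plus strand): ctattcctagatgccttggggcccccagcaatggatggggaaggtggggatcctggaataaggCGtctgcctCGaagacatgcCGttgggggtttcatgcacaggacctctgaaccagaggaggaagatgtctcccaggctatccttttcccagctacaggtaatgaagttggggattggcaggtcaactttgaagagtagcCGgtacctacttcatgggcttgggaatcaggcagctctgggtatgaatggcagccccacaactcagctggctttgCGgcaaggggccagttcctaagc
Jag2 (chr12:112929446-112929745, minus strand): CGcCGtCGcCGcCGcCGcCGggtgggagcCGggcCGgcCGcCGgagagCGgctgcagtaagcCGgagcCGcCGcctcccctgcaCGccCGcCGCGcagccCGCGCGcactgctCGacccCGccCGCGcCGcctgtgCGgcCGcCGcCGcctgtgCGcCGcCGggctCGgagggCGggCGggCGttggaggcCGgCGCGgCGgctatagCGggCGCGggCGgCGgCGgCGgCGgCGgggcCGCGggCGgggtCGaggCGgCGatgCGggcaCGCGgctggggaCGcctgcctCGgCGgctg
Foxa1 (chr12:57546062-57546361, minus strand): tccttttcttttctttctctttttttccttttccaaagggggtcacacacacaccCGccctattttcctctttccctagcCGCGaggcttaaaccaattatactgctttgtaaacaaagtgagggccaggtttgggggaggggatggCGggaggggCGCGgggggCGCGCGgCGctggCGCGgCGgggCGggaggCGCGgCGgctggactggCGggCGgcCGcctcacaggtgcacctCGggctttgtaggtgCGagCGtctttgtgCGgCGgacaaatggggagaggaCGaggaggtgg
Nkx2-1 (chr12:56536859-56537158, minus strand): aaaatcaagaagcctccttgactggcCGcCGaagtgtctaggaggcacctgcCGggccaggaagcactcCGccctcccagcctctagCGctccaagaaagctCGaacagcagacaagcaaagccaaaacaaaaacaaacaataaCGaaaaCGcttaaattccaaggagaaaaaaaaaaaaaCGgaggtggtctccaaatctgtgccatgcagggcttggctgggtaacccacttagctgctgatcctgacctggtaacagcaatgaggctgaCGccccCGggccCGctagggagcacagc
The Jag2 window held 63 CG and the Inha window 5, with 27 for Sox2, 26 for Foxa1 and 12 for Nkx2-1. CG content thus varied as widely among the low-end promoters as across all 5. Over the 45 promoters of domains kept at 90% or more in both mutant lines the median was 21, and over the 6 of domains kept under 50% in both it was 22.5.

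H3K4me2 in the mutant lines covered most of the domain length but less than a second control line did. Peaks covered a median of 76.9% of a domain in 236L (quartiles 52.6 and 93.7%) and 87.5% in 236R (quartiles 68.5 and 97.1%). Both mutant lines fell under 50% in 11 domains (6.11%), against 14.4% of all control-shared regions of 1 kb or more and 3.51% of those of 4 to 8 kb. Both reached 90% in 38 domains (21.1%), against 37.0% of all regions and 34.2% of the 4 to 8 kb class. Relative to the 4 to 8 kb class, fewer of the wide domains were high in both lines (exact binomial interval 15.4 to 27.8%). The share low in both was higher, but its exact interval, 3.09 to 10.7%, included the share of the 4 to 8 kb class. Of the 27 domains of 12 kb or more, 40.7% were high in both, above the 4 to 8 kb class, and 3.70% were low in both. In the many regions of 1 to 2 kb, 22.1% were low in both. In 117 domains 236R kept more than 236L, in 54 it kept less, and in 9 the shares were equal.

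**Figure D1:**
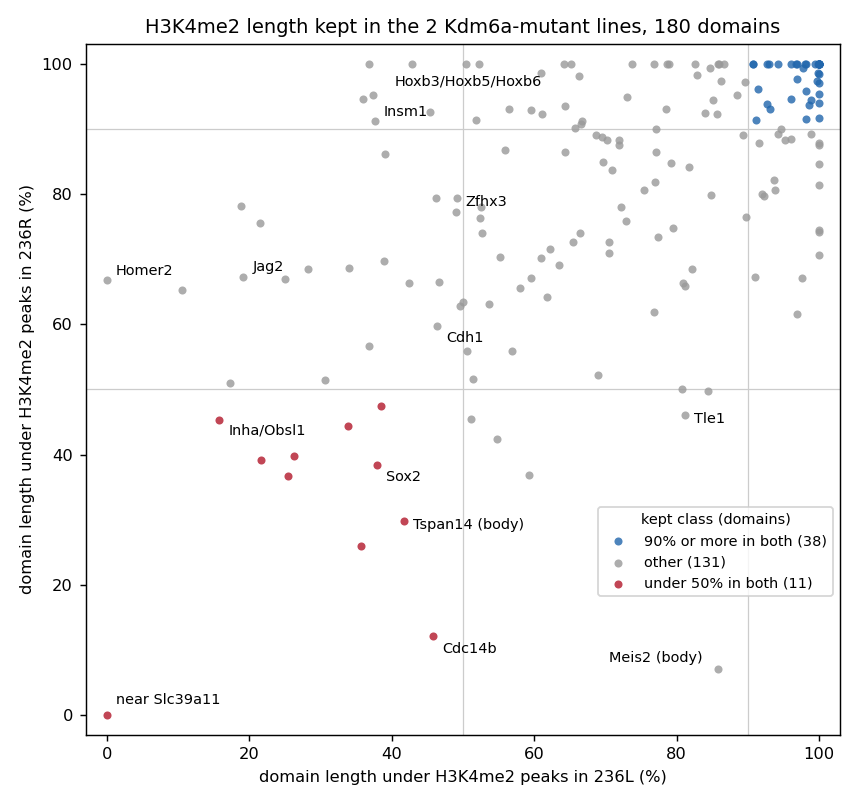
Each point is 1 of 180 domains, with the share of its length under H3K4me2 peaks in 236L on the x axis and in 236R on the y axis (both in %), coloured by class. The 11 domains under 50% in both lines lie at the lower left, the 38 at 90% or more in both at the upper right, and 117 of 180 points lie above equality, with more cover in 236R.

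Domains were also set on 1 control line alone, so that the other control line took no part in the choice. When domains of 8 kb or more were taken from 159-1 alone, there were 313, and the median share covered was 68.7% in 236L and 76.5% in 236R, against 93.2% in 1014. When they were taken from 1014 alone, there were 298, and it was 71.3% in 236L and 82.2% in 236R, against 94.5% in 159-1. Under the first choice 30.0% of domains were under 50% in 236L and 16.9% in 236R, against 0.639% in 1014, and under the second 23.8% and 11.4% in the mutant lines, against 1.01% in 159-1. In both choices each mutant line lay below the control line that took no part in the choice, which is a description of 1 control line against 2 mutant lines and not a test. By the names of the deposited lists, in which the 2 control lines are exchanged, the 313 domains would be those of 1014 and the 298 those of 159-1, and the other control line would change name with them.

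**Figure D2:**
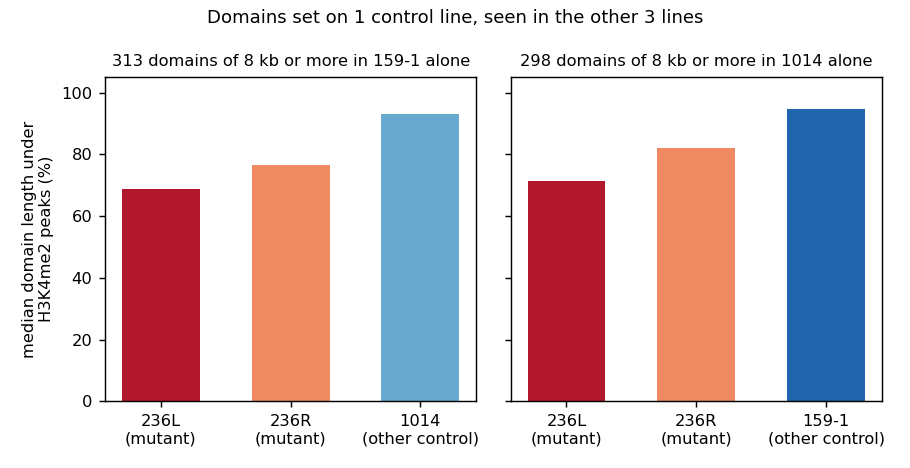
Bars give the median share of domain length under H3K4me2 peaks (%), with domains set on 159-1 alone (left, 313 domains) or on 1014 alone (right, 298 domains), in the 2 mutant lines and in the control line not used, all named by sample label. The mutant bars reach 68.7 to 82.2%, and the other control line reaches 93.2 and 94.5%.

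The reverse choice was made with the mutant lines. Domains of 8 kb or more shared by 236L and 236R numbered 73, against 180 in the control lines, and peaks covered a median of 98.3% of their length in 159-1 and 99.5% in 1014. Of these 73, 46 (63.0%) overlapped a wide domain of the control lines, and 47 of the 180 (26.1%) overlapped one of theirs. Among the 27 that did not, the domain over Zeb2, a mesenchymal repressor and a target of the miR-200 family, was 14.9 kb wide, with 14.7% of it covered in 159-1 and 31.4% in 1014. The domain over Cd274 (PD-L1, an immune checkpoint ligand), of 8.59 kb, had 50.8% cover in 159-1 and 39.7% in 1014. Zeb2 and Cd274 had the lowest cover in 1014 among the 27 and do not stand for the rest. Most of the 27 were covered over most of their length in both control lines. Ptma, for example, had 100% in 159-1 and 88.1% in 1014, and Bcl6 had 88.6% and 98.7%.

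Cover in the mutant lines was lower at the ends of the domains than at their centre. At the outermost bins of 20 along the domain, mean H3K4me2 cover was 45.8% in 236L and 57.8% in 236R, and at the centre it was 79.1% in 236L and 88.2% in 236R. The end of a domain is by rule where a peak of a control line stops, so the comparison was repeated with domains set on 1 control line. Over domains of 159-1 alone, the end bins had 40.5% in 236L and 44.9% in 236R, against 65.96% in 1014, and the centre had 73.9% and 81.7%, against 92.4% in 1014. Over domains of 1014 alone, the end bins had 39.3% in 236L and 49.3% in 236R, against 69.1% in 159-1, and the centre had 76.6% and 84.5%, against 92.2% in 159-1. The control line that took no part in the choice was thus also lower at the ends, by 23.1 to 26.4 points, where the mutant lines were lower by 33.4 to 37.3 points. By the deposited names, 159-1 and 1014 would change places here too. Over the 180 domains, cover was a single run in 117 domains in each mutant line, with a median longest run of 6.21 kb in 236L and 7.55 kb in 236R. A run of 8 kb or more remained in 60 domains in 236L and 74 in 236R, in 42 of them in both lines, and in 88 domains neither line had one. The 2 mutant lines ranked the domains alike to a moderate degree, with Pearson's r of 0.555 over the 180 domains, which share the same libraries and are not replicates.

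**Figure D3:**
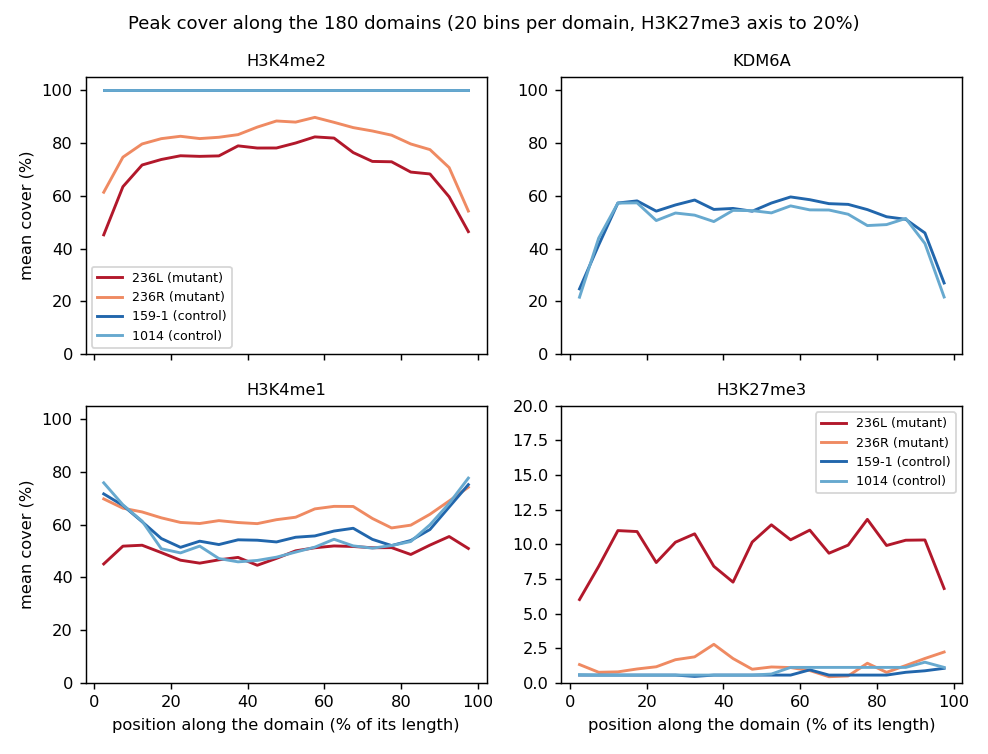
Mean share of each of 20 bins under peaks (%, y axis) is plotted against position along the domain (% of its length, x axis) for H3K4me2, KDM6A, H3K4me1 and H3K27me3 (the last on an axis to 20%), with 1 line per cell line. H3K4me2 of the mutant lines and KDM6A fall towards the ends, and H3K4me1 of the control lines rises there, while control H3K4me2 is 100% by choice.

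Domains of the lineage factors were among those kept. Peaks covered 96.8% of the Nkx2-1 domain in 236L and 100% in 236R, and 96.1% of the Foxa2 domain in 236L and 100% in 236R. The Nfib domain was fully covered in both. The Foxa1 domain had 94.2% in 236L and 89.2% in 236R. These stood above the median of all domains. The 8 widest domains with 90% or more in both lines included the 5S array, the stretch near Ppara (100% in both), Nkx2-1, Foxa2, Nfib, a domain over Maz, Mvp, Pagr1a and Prrt2 (100% in both) and Kdm6b (97.0% in 236L and 100% in 236R). Setd1b had 99.6% in 236L and 97.3% in 236R, and Malat1 was covered in full in both. The 3 COMPASS and KDM6 genes were thus all kept, with a median of 98.5% over their mean of both lines, against 79.2% over all 180 domains.

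The neuroendocrine list was not uniform. Its 7 genes had a median of 95.3%, yet Insm1, a zinc finger factor of neuroendocrine differentiation, kept 37.6% of its 13.1 kb domain in 236L and 91.2% in 236R. Dll1, a Notch ligand, kept 55.2% in 236L and 70.4% in 236R, and Prox1, a homeobox factor, kept 90.7% and 100%. The lines thus diverged at Insm1 and were both high at Prox1. Jag2, another Notch ligand, whose 14.1 kb domain is at chr12:112919898-112934015, kept 19.2% in 236L and 67.3% in 236R. Hes1, the Notch target and repressor of neuroendocrine genes, kept 93.7% in 236L and 82.2% in 236R.

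Among developmental factors, Id2, an inhibitor of basic helix-loop-helix factors, kept 97.7% in 236L and 99.3% in 236R, and Zfhx3 kept 49.0% in 236L and 77.3% in 236R. Meis2, a homeobox cofactor, had 3 domains in a row with gaps of 0.626 and 0.623 kb. The 14.8 kb domain in its body kept 85.8% in 236L and 7.05% in 236R. The 8.35 kb domain next to it kept 97.6% in 236L and 67.1% in 236R, and the 12.6 kb domain with its start kept 51.1% in 236L and 45.5% in 236R. Neighbouring stretches of 1 gene therefore differed between the lines. Cdh1, which encodes E-cadherin, kept 46.3% of 10.3 kb in 236L and 59.8% in 236R, below the median of all domains in each line.

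Domains with the lowest mean cover held genes of varied roles. A domain of 8.90 kb between genes, nearest to Slc39a11 and over the noncoding gene 2610035D17Rik (chr11:113176437-113185340), had no H3K4me2 peak in either mutant line. Cdc14b, a cell cycle phosphatase, kept 45.8% in 236L and 12.1% in 236R, and Prss8, the epithelial serine protease prostasin, kept 21.7% and 39.2%. Inha, the inhibin alpha subunit, and Obsl1, a cytoskeletal adaptor, share a 14.9 kb domain (chr1:75496984-75511875) that kept 15.8% in 236L and 45.3% in 236R. These 4 were low in both lines. Trim62, an E3 ubiquitin ligase, kept 25.4% in 236L and 36.8% in 236R, and Atp8b1, a phospholipid flippase, kept 26.3% in 236L and 39.7% in 236R. Both domains were under 50% in both lines, as were those of Cdk8 and Nptx1, a neuronal pentraxin. The body of Tspan14, a tetraspanin, kept 41.7% in 236L and 29.8% in 236R. Homer2, a synaptic scaffold, kept 0% in 236L and 66.8% in 236R, and Kcnh6, a potassium channel, 17.3% and 51.0%, so these 2 were below 50% in 236L alone.

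Sox2, a factor of stem and airway basal cells that is widely expressed in small cell lung cancer, was low in both lines. Peaks covered 38.0% of its 9.53 kb domain (chr3:34647814-34657344) in 236L and 38.4% in 236R. The longest covered run was 3.08 kb in 236L and 3.66 kb in 236R. The longest kept run lay on the side of the domain that holds the gene, as the maps of peaks show.

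**Figure D4:**
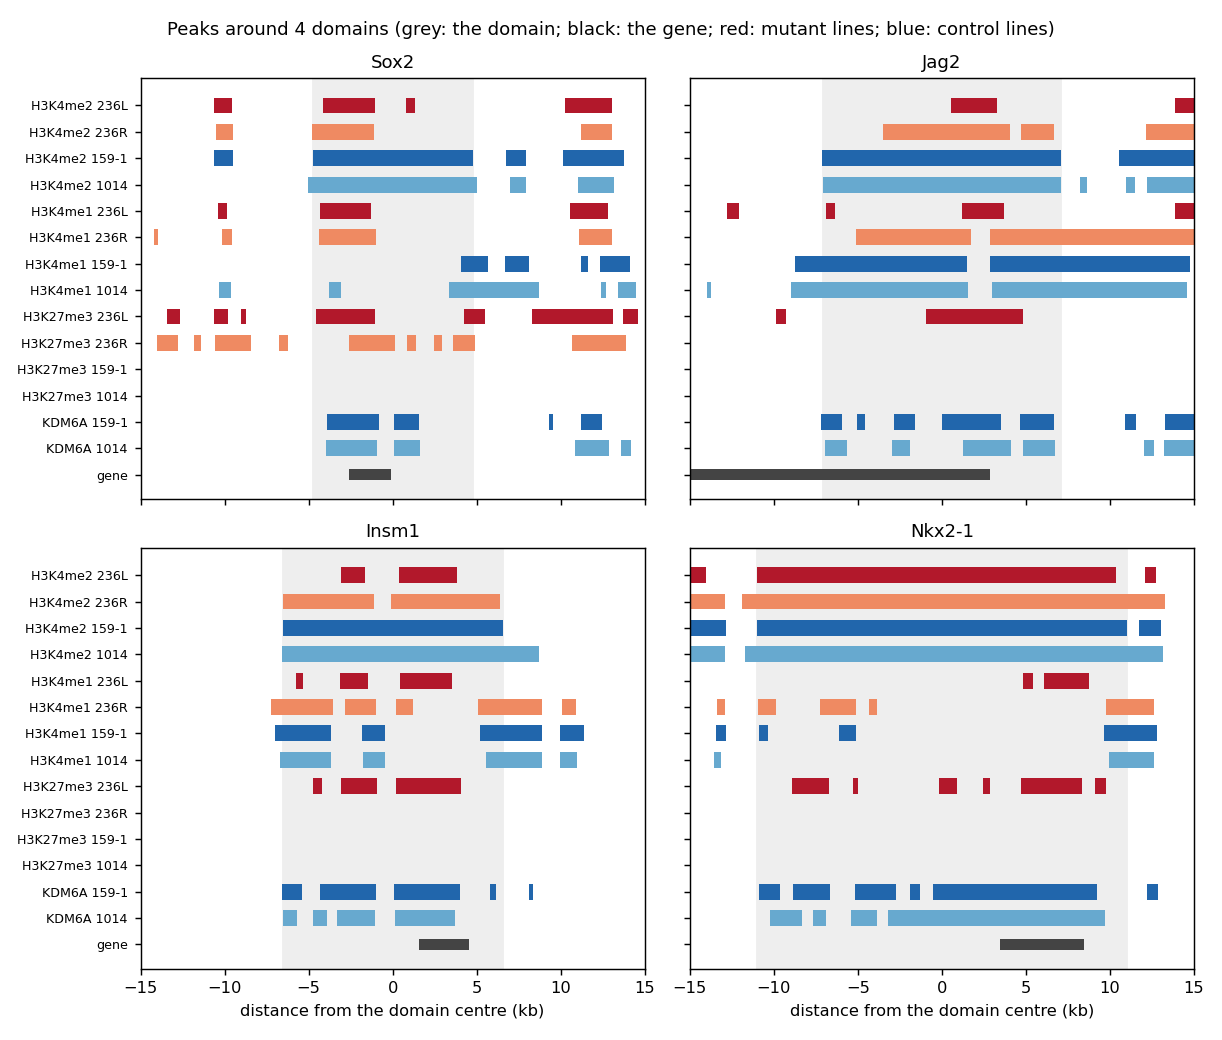
Peaks of each list (rows) are drawn against distance from the centre of the domain (kb, x axis) for Sox2, Jag2, Insm1 and Nkx2-1, with the domain in grey, the gene in black, mutant lines in reds and control lines in blues. At Sox2 H3K4me2 covers 38.0 and 38.4% in the mutant lines, at Jag2 and Insm1 the loss is greater in 236L, and at Nkx2-1 cover is 96.8 and 100%.

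KDM6A peaks touched all 180 domains in both control lines, against 68.2% of all control-shared regions of 1 kb or more and 97.9% of those of 4 to 8 kb. Median cover was 52.4% of a domain in 159-1 and 49.5% in 1014, and in the 4 to 8 kb class it was 40.0% in 159-1 and 37.6% in 1014. Cover of the 2 lines went together over the domains (r = 0.735). Longer regions offer more room for any peak, so that the share touched rises with width by itself. The median share of length also rose with width. It was 32.9% in 159-1 and 23.8% in 1014 in regions of 1 to 2 kb. In those of 2 to 4 kb it was 38.5% in 159-1 and 34.7% in 1014. The part of width in the KDM6A cover of the domains was not tested.

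The highest KDM6A cover was at Tnrc18, with 89.5% in 159-1 and 93.2% in 1014, Fam222a, with 89.9% and 90.2%, and Id2, with 87.3% and 82.3%. Next came a domain near Cbx8, Txnip, an inhibitor of thioredoxin, and Adgrg1, an adhesion receptor. At the low end were the domain of Cdca4 and Gm52009, with 20.7% in 159-1 and 9.55% in 1014, and that of Cdk8, the kinase of Mediator, with 18.01% in 159-1 and 12.7% in 1014. High KDM6A cover went with differing shares of kept H3K4me2. Tnrc18 kept 100% in 236L and 91.7% in 236R, and Adgrg1, with 78.9% KDM6A in 159-1 and 80.6% in 1014, kept 34.0% in 236L and 68.6% in 236R. Across the 180 domains KDM6A cover and kept H3K4me2 had r = 0.169.

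Within domains the relation was closer. Of the 792 kb under KDM6A peaks in both control lines, H3K4me2 was kept over 83.8% in 236L and 93.6% in 236R. Of the 761 kb under no KDM6A peak in either line, it was kept over 61.6% in 236L and 68.4% in 236R. The share was higher at KDM6A-covered bases in 137 of 180 domains in 236L and lower in 20, and in 236R it was higher in 130 and lower in 12. KDM6A cover itself was lower at the outermost bins (25.8% in 159-1 and 21.6% in 1014) than at the centre (55.7% and 54.0%), as was kept H3K4me2, and the part of position in this relation was not tested. A control line that took no part in the choice showed the same order. Over domains of 159-1 alone the KDM6A-covered and uncovered bases had 82.1 and 53.9% in 236L and 91.9 and 58.5% in 236R, against 98.8 and 81.2% in 1014. Over domains of 1014 alone they had 84.2 and 56.7% in 236L and 93.8 and 65.8% in 236R, against 99.2 and 83.0% in 159-1. By the deposited names of the H3K4me2 lists, 159-1 and 1014 would change places in these last values.

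The difference in H3K4me1 over the domains was smaller than the spread between the lines. H3K4me1 peaks covered 50.9% of the domain length in 236L and 63.7% in 236R, against 58.1% in 159-1 and 55.5% in 1014. The groups overlapped, with a mean of 57.3% ± 9.02 in mutant lines and 56.8% ± 1.80 in control lines (SD, n = 2 each, exact permutation test, two-sided, p = 1). Without the 5S array the shares were 48.7% in 236L and 62.01% in 236R, against 56.1% in 159-1 and 53.5% in 1014.

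Single domains did separate. Both mutant lines exceeded both control lines by at least 20 points in 7 domains (3.89%), against 7.96% of all regions. These were Zfp516, a zinc finger factor, Cbx5 and Hnrnpa1, a heterochromatin protein and a splicing factor in 1 domain, Lfng, a glycosyltransferase that modifies Notch, a stretch near Eapp, Hes1, Prox1 and Id2. Zfp516 had 68.2% in 236L and 75.3% in 236R, against 13.9% in 159-1 and 6.86% in 1014. Cbx5 and Hnrnpa1 had 43.8% in 236L and 55.5% in 236R, against 6.64% in 159-1 and 0% in 1014. Both mutant lines lay at least 20 points below in 3 domains (1.67%), against 5.51% of all regions. One of them, Cdk8, had 20.9% in 236L and 2.12% in 236R, against 47.0% in 159-1 and 56.2% in 1014. Another, with the clustered homeobox genes Hoxb3, Hoxb5 and Hoxb6, had 0% in 236L and 17.0% in 236R, against 38.6% in 159-1 and 63.9% in 1014. Both counts lay below the share over all regions, which are mostly narrower, and no class of like width was counted. With a minimum width of 5 kb the shares with more and less H3K4me1 were 5.96% and 0.766%. With 12 kb both were 0%.

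H3K4me1 of the control lines lay more often over the parts of the domains that the mutant lines left without H3K4me2. Over the 534 kb that 236L left without H3K4me2, H3K4me1 peaks of the control lines covered 84.3% in 159-1 and 84.6% in 1014, against 48.3% and 44.7% of the 1437 kb that it kept. Over the 359 kb that 236R left, they covered 80.4% in 159-1 and 81.7% in 1014, against 53.1% and 49.7% of the kept length. In the mutant lines themselves the uncovered bases differed: in 236L H3K4me1 covered 27.2% of what that line left and 59.7% of what it kept, and in 236R it covered 70.0% and 62.3%. Prss8, Trim62 and the stretch near Slc39a11 show the 2 cases, with H3K4me1 over 36.1%, 18.5% and 0% in 236L and over 70.2%, 92.8% and 89.97% in 236R. The control lines had at least 81.4% at each of the 3. The same measure was taken for a control line that took no part in the choice. Over domains of 159-1 alone, H3K4me1 peaks of 159-1 covered 71.2% of what 1014 left and 60.2% of what it had, and those of 1014 covered 84.6% and 57.7%. Over domains of 1014 alone, H3K4me1 peaks of 159-1 covered 39.6% of what 159-1 left and 52.9% of what it had, and those of 1014 covered 41.4% and 51.7%. In that second choice the mutant lines differed from the control line, with control H3K4me1 over 72.1 and 74.2% of what 236L left and 71.3 and 72.9% of what 236R left. By the deposited names, 159-1 and 1014 would change places as the source of the domains and of H3K4me2, while the H3K4me1 lists keep their line. The pairing of the 2 marks within a control line therefore depends on which names hold.

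**Figure D5:**
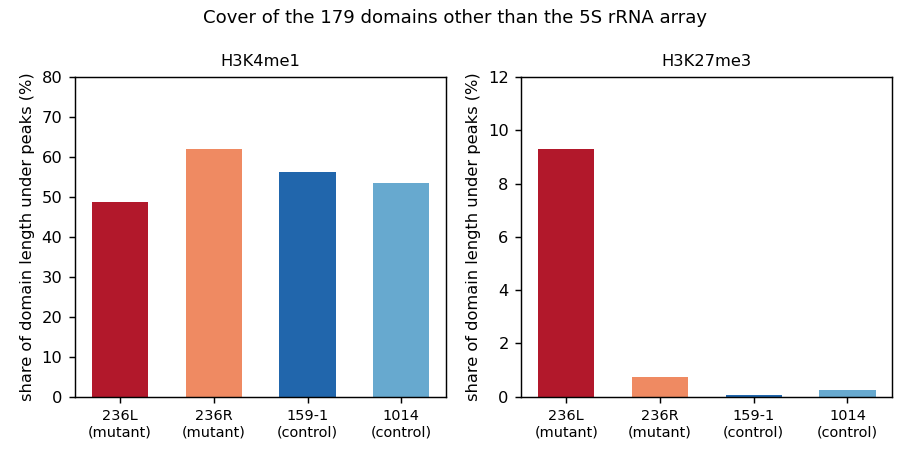
Bars give the share of the length of 179 domains, without the 5S array, under H3K4me1 peaks (left) and H3K27me3 peaks (right) in each line, in %, on separate axes. H3K4me1 spans 48.7 to 62.01% with mutant lines on both sides of the control lines, and H3K27me3 is 9.30% in 236L and at most 0.728% in the other 3 lines.

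H3K27me3 was scarce in the domains except in 236L. It touched 52 domains (28.9%) in 236L and 6 (3.33%) in 236R, against 3 (1.67%) in 159-1 and 4 (2.22%) in 1014. Of all control-shared regions of 1 kb or more it touched 11.5% in 236L and 5.18% in 236R, against 5.07% in 159-1 and 8.90% in 1014, and of those of 4 to 8 kb 14.2% in 236L and 2.37% in 236R, against 1.80% in 159-1 and 2.89% in 1014. Longer regions offer more room here too. As a share of length, all regions had 6.81% in 236L and 2.25% in 236R, against 2.74% in 159-1 and 5.18% in 1014. Without the 5S array it covered 9.30% of the length in 236L and 0.728% in 236R, against 0.071% in 159-1 and 0.262% in 1014 (mean 5.01% ± 6.06 in mutant lines and 0.167% ± 0.135 in control lines, SD, n = 2 each, exact permutation test, two-sided, p = 0.333, the smallest this design gives). With the array the shares were 13.3% in 236L and 4.45% in 236R, against 4.45% in 159-1 and 4.67% in 1014 (difference of 4.30 points, p = 0.667, same exact test). With peaks of −log10 q of at least 3 alone, the difference was 1.32 points (p = 1, same exact test). The 236L value was the highest, although the list of that line was the shortest, and 38.7% of its cover fell within H3K4me2 peaks of the same line, against 11.6% in 236R, 5.48% in 159-1 and 4.56% in 1014. The part of that list's makeup in the result was not tested. By the deposited names of the H3K4me2 lists, the 5.48% and 4.56% would be overlap with H3K4me2 of the other control line.

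In 236L the mark lay over several lineage factors. It covered 50.2% of the Foxa1 domain, 40.6% of Foxa2 and 37.6% of Nkx2-1, all of which kept at least 94.2% of H3K4me2 in 236L, and 49.9% of Insm1, which kept 37.6% of H3K4me2 there. In 236R and in both control lines the mark covered 0% at all 4. The Nfib domain had 0% in 236L. Nor was the mark particular to lineage factors in that line. It covered 72.2% of the Bahcc1 domain, 62.0% of Nptx1 and 57.1% of Fam222a. The domain of Hoxb3, Hoxb5 and Hoxb6 (chr11:96296601-96308033) was covered over 100% in 236L and 15.9% in 236R, against 0% in both control lines, and the domain in the body of Hoxb3 over 97.2% and 13.4%, against 0% in both. At these 2 neighbouring domains 236L kept 50.5% and 36.8% of H3K4me2, and 236R kept 100% of each.

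Only Sox2 had H3K27me3 at least 20 points higher in both mutant lines than in both control lines, with 42.1% in 236L and 52.8% in 236R, against 0% in 159-1 and 0% in 1014. That is 1 of 180 domains (0.556%), against 0.444% of all regions, so the count itself is near the background. No domain had it lower by that margin in both mutant lines, against 1.41% of all regions. Sox2 was thus the 1 domain with H3K4me2 under 50% and H3K27me3 over 20% in both mutant lines. The placement of the 2 marks differed between the lines. In 236L an H3K27me3 peak from -4.54 to -1.04 kb of the domain centre spanned the longest H3K4me2 run (-4.14 to -1.06 kb). In 236R a peak from -2.61 to 0.145 kb lay only partly on the H3K4me2 peak from -4.80 to -1.11 kb.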

How the data were processed

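ChIP-seq peak lists of 4 lines were analysed, 14 lists of 24 samples; input libraries were not analysed here. The submitters' processing notes name Bowtie2 2.4.2, MACS3 3.0.0a7 and the build mm10; thresholds, control track and duplicate handling were not given in the sources used. Each deposited broad peak has a score, a fold enrichment (a linear ratio), a −log10 p-value and a −log10 q-value, all the authors' own, used only to describe or filter peaks within a list. Peaks of a list were merged and cover computed per base on chromosomes 1 to 19 (Python 3.11.15, pandas 2.3.3, numpy 2.4.6), after a test of the interval code on simulated data. Peak heights were not compared between lists. Totals were compared by exact two-sided permutation tests of 2 against 2 lines. RefSeq tables (GRCm38.p6, the same assembly as mm10) gave genes and sequences; 16457 of 20665 genes had a promoter entry.

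The members, gene lists and tests were chosen with earlier results of these data known. Named domains were the 12 widest, the 10 with the lowest mean kept share, the 8 widest kept at 90% or more in both mutant lines, the 6 with the highest KDM6A cover, up to 5 with the largest separation of H3K4me1 or H3K27me3 in each direction, and list members. No domain lacked KDM6A, so low-KDM6A domains were chosen after their values were seen, as were the noncoding, microRNA, Jag2, Zeb2 and Cd274 domains. Alternatives covered minimum width, merging distance, a −log10 q minimum of 3, equal list lengths, thresholds and leaving out each line. Some items that these rules name are not reported here.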

Additional observations from a re-analysis of the deposited data

How the results depend on the processing

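Of 143 recomputed values of 13 results, 106 stayed within the tolerance (1.5 times for the number of domains, the 95% exact interval for a share of domains, 1 SD between lines for the other levels, the sign for differences), 31 moved and 6 changed sign. With a minimum width of 5 kb there were 1175 domains, 28.1% of them at 90% or more in both mutant lines, and mean KDM6A cover was 44.2% (50.4% as reported). With 12 kb there were 27, of which 77.8% had a gene start and 40.7% were at 90% or more in both, the median kept share was 86.8% (79.2% as reported for the mean of both lines), and 0% had more H3K4me1, 0% less H3K4me1 and 0% more H3K27me3 in both mutant lines. Merging peaks within 1 kb gave 280 domains, 45.02% KDM6A cover and an H3K4me1 difference (mutant minus control) of -1.53 points, against 0.519 as reported. A −log10 q of at least 3 gave 41.5% KDM6A cover, with 89.4% of domains touched in both lines, and 97.8% had at least 10% cover in both; the H3K27me3 difference was 1.32 points (4.30 as reported). A limit of 25% in place of 50% left 0.556% of domains low in both mutant lines, a margin of 10 points gave 12.8% with more H3K4me1, and starts from promoter entries alone lay in 67.8% of domains (added after the data were seen, as were leaving out the 5S array and measuring position, KDM6A and H3K4me1 with domains of 1 control line).

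Leaving out 1 line at a time gave ranges of 298 to 313 domains, 72.2 to 87.5% for the median kept share, 8.39 to 20.6% low and 14.4 to 42.2% high in H3K4me2, and 42.6 to 51.7% KDM6A cover. With 1 control line left out of the choice, the domains were those of the other alone, without the intersection. With 1 mutant line left out, low or high was counted in the other alone, so that these 2 shares could not fall. The H3K4me1 difference ranged from -5.86 (without 236R) to 6.90 points (without 236L), and was -0.362 and -3.24 with domains from 1 control line and -0.755 without 1014. The shares with more and less H3K4me1 ranged from 2.24 to 14.4% and from 1.28 to 28.3%. The H3K27me3 difference ranged from -0.103 points without 236L to 8.71 without 236R, and the share with more H3K27me3 from 0.556 to 14.4%, so that it rests on 236L. Leaving a line out of the H3K4me1 or H3K27me3 comparison removes a condition from the shares with more or less of the mark, which then could not fall. The causes were not tested. No paired analysis was possible because the replicate numbers only name the lines of a genotype and the labels tie no mutant line to a control line. No read counts were used, so depth limits each length to an unknown degree.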
